A study of Mus musculus with 47 samples.

Results

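The change in intestinal RNA between zeitgeber time 10 (ZT10, late in the light phase of a nocturnal animal) and ZT14 was examined in all 16 libraries of these times, out of 47 libraries in the series. Zeitgeber time counts hours from lights on. In the usual schedule of equal light and dark, lights go off between these times and mice begin to feed, although the labels do not state the schedule. Members were taken by label alone: 8 libraries of ZT14 against 8 of ZT10, with 2 of each in convR duodenum, GF duodenum, convR ileum and GF ileum. A change was called shared by the 4 groups if it passed an edgeR test over all 16 libraries at an adjusted p under 0.05 and if both ZT14 libraries lay on the same side of both ZT10 libraries within every group.

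The animals were male C57BL/6J mice aged 15 to 16 weeks with food at all times. The convR mice were conventionally raised with a gut flora and the GF mice were germ-free, that is, raised without microorganisms. Total RNA of the duodenum (first segment of the small intestine) or the ileum (last segment) was depleted of ribosomal RNA and sequenced. The 16 libraries held between 22546800 and 41059003 exon counts (median 32123785), and the ZT14 libraries were deeper (median 36516745) than those of ZT10 (29793881). The labels do not say whether libraries of 1 group came from separate mice, so the p-values measure the spread between these samples. Levels are given as CPM, a gene's count relative to the library total after scaling by the trimmed mean of M values. In such bulk RNA, fewer cells of a type and less RNA per cell cannot be told apart.

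Mammalian cells keep daily time with a transcriptional loop. BMAL1 (gene Arntl) and CLOCK drive genes with E-boxes (CACGTG) in their promoters, among them those of the PER and CRY repressors, which then shut the drivers down. REV-ERB alpha (Nr1d1) represses, and the ROR proteins activate, a further set of genes that includes Arntl. Peripheral clocks such as that of the gut also follow feeding, body temperature and glucocorticoid hormone. In nocturnal rodents glucocorticoid is highest around lights-off and body temperature is higher in the night. Heat shock factor 1 turns on chaperone genes in answer to warmth or to unfolded protein.

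Each library was first compared with its time label over the 20 genes of 3 clock lists. Distance was the root mean square difference in log2 CPM from the other libraries of the group at each time. Of the 16 libraries, 14 lay nearest to their own time, at distances of 0.152 to 0.433. The library labelled GF duodenum ZT14 replicate 1 lay at 0.239 from the ZT10 libraries of its group and at 1.08 from replicate 2 of its own time. Dbp, a clock output gene, shows the same: it stood at 142.9 and 148.6 CPM at ZT10 in GF duodenum, at 146.9 CPM in replicate 1 of ZT14 and at 31.1 CPM in replicate 2. The clock genes of that library thus go against its label. Replicate 2 of GF duodenum ZT14 lay nearest to a library labelled GF duodenum ZT6 replicate 1, at 0.366, whose nearest time was ZT14 in turn. Gene counts and the fitted changes of called genes over 16 libraries are given beside those over 15, without the library labelled GF duodenum ZT14 replicate 1. The library labelled GF duodenum ZT14 replicate 1 was singled out by its clock genes. It also lay nearer to the ZT10 mean of its group than replicate 2 for 36 of the 38 shared rises and 13 of the 15 shared falls. Leaving it out was thus bound to enlarge many of these changes, so values, counts and p-values over 15 libraries are a description. With 1 ZT14 library left in GF duodenum, the rule of no overlap is also easier to meet there.

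**Figure D1:**
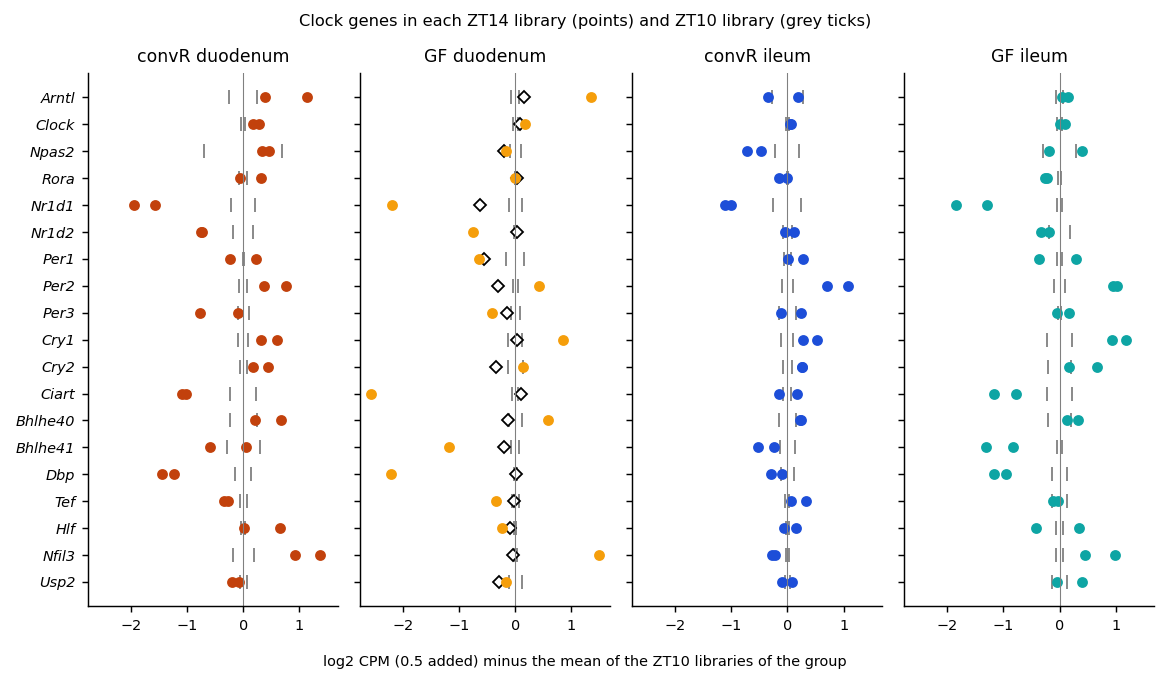
Log2 CPM of clock genes in each ZT14 library (points) relative to the mean of the ZT10 libraries of its group (0 on the horizontal axis), with the ZT10 libraries as grey ticks. Open diamonds mark the library labelled GF duodenum ZT14 replicate 1, which stays near 0 for Dbp, Ciart, Nfil3 and Arntl where replicate 2 does not.

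The tissue labels were compared with marker genes. The summed CPM of 6 ileal genes was 161.5 to 407.2 in the 8 duodenum libraries and 4253 to 6975 in the 8 ileum libraries. For 7 duodenal genes the sum was 3181 to 6951 CPM in the duodenum libraries, 115 to 536.9 CPM in 7 ileum libraries and 1233 CPM in GF ileum ZT14 replicate 1. That library was also highest of its group for 13 T cell and intraepithelial lymphocyte genes (26.8 CPM, beside 9.07 to 9.96 CPM), and without it 74 genes passed the test below. The summed CPM of 6 measured stomach and Brunner gland genes was at most 13.9 in 15 libraries and 13680 in convR duodenum ZT14 replicate 1. For 12 pancreatic acinar genes the sum was at most 112.3 CPM in 15 libraries and 2693 CPM in convR duodenum ZT14 replicate 2. Both libraries are of 1 group at ZT14, and the part of stomach or pancreas tissue in results on convR duodenum was not tested.

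Of 19618 genes tested over 16 libraries, 75 passed (0.382%), 58 of them higher (0.296%) and 17 lower (0.0867%) at ZT14. Without the library labelled GF duodenum ZT14 replicate 1, 206 of 20232 passed (1.02%), 139 higher (0.687%) and 67 lower (0.331%). Changes shared by the 4 groups numbered 53 over 16 libraries (0.27%): 38 rises (0.194%) and 15 falls (0.0765%). They numbered 171 over 15 libraries (0.845%), with 120 rises (0.593%) and 51 falls (0.252%), and 51 of the 53 were among them. The other 2, Tcim and Slitrk6, passed the test but overlapped by a small margin after the libraries were rescaled. Without regard to the test, 121 genes (0.617%) lay above their ZT10 libraries in all 4 groups without overlap, and 89 (0.454%) below. The shared rises over 16 libraries ranged from 0.22 to 2.65 on the log2 scale with a median of 0.51. The highest was the predicted gene Gm20481, named after its value was seen, at a mean of only 0.185 CPM. The shared falls ranged from -0.32 to -1.42 with a median of -0.43. Of the 22 genes that passed without being shared, 18 overlapped in GF duodenum alone. Such genes can become shared over 15 libraries because only 1 ZT14 library of that group must then lie apart. The count depends on single libraries: leaving out any other library left between 16 genes passing (without GF ileum ZT14 replicate 2) and 76 (without convR duodenum ZT14 replicate 2). Without the convR duodenum group none passed in edgeR (2489 at an unadjusted p under 0.05). The 52 shared genes still tested kept their sign, which the rule of no overlap in every group all but fixes in advance. DESeq2 called 339 genes over 16 libraries, the 53 shared genes among them. Duodenum and ileum libraries of equal number may come from 1 mouse, which the labels do not say, and the test takes all 16 as independent. With the libraries of equal number summed over the 2 tissues, 3 genes passed, 1 of them among the 53. All 53 kept their sign, which the rule of no overlap again all but fixes.

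Chaperone genes gave more shared rises than any other list tested. Of 23 genes tested from the heat shock and folding list, all 23 had a higher fitted level at ZT14, 9 rose and 7 of these rises were shared. The list's median log2 change was 0.326, beside -0.00292 over all genes tested, of which 9653 of 19618 were higher. Over 15 libraries 13 rose and 12 of these were shared, with a median of 0.36. The list was drawn up with earlier results of these data known and is not independent evidence.

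Hsph1 encodes an HSP110 chaperone that helps to take apart protein aggregates, and lies on chromosome 5 from 149614287 to 149636376 on the minus strand (mm10, GENCODE M21). Its level at ZT10 lay between 23.7 and 34.8 CPM in all 8 libraries. At ZT14 it reached 149.5 and 102.2 CPM in convR duodenum, 81.5 and 87.7 CPM in convR ileum, and 46.5 and 99.5 CPM in GF ileum. In GF duodenum replicate 2 stood at 95.1 CPM, and the library labelled replicate 1 at 26.0 CPM, barely above its ZT10 partners at 23.9 and 24.9 CPM. The fitted change was 1.58 ± 0.25 (log2, SE, 2.98-fold), with an edgeR adjusted p of 0.025. Over 15 libraries it was 1.72 ± 0.16, with an adjusted p of 0.000361.

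Other cytosolic chaperone genes of the list passed as well, while 14 of its 23 genes did not. Hspa8, the constitutive HSP70, stood at 517.5 to 796.5 CPM in the ZT10 libraries and at 866.3 to 1228 CPM in those of ZT14, so the 2 times did not overlap even across groups. It rose by 0.57 ± 0.09 (log2, SE; edgeR adjusted p = 0.0126), and by 0.62 ± 0.09 over 15 libraries. Hsp90aa1, the inducible cytosolic HSP90, stood at 91.6 to 172.5 CPM at ZT10 and at 126.4 to 259.1 CPM at ZT14. Its rise was 0.66 ± 0.09 (edgeR adjusted p = 0.0113), and 0.71 ± 0.09 over 15 libraries. The HSP90 cochaperones Chordc1 (0.61 ± 0.08), Stip1 (0.45 ± 0.07) and Ahsa1 (0.41 ± 0.06) and the S100- and HSP90-associated gene Cacybp (0.39 ± 0.08) were shared rises as well. Over 15 libraries Chordc1 had 0.65 ± 0.08, Stip1 0.49 ± 0.07, Ahsa1 0.44 ± 0.06 and Cacybp 0.40 ± 0.09, all shared. Dnajb1, the HSP40 partner of HSP70, rose by 0.45 ± 0.09 but overlapped in GF duodenum, and was a shared rise over 15 libraries (0.51 ± 0.07).

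The stress-inducible HSP70 genes Hspa1a and Hspa1b had the highest fitted changes of the list. Hspa1b stood at 1.24 to 4.77 CPM at ZT10. At ZT14 it stood at 48.8 and 18.5 CPM in convR duodenum, 1.83 and 24.4 CPM in GF duodenum, 21.4 and 17.8 CPM in convR ileum, and 4.68 and 29.6 CPM in GF ileum. A single library in each GF tissue thus stayed near its ZT10 level. The fitted change was 2.85 ± 0.57 with an edgeR adjusted p of 0.0622 over 16 libraries, and 3.0 ± 0.47 with an adjusted p of 0.0151 over 15. Hspa1a had 2.79 ± 0.55 (adjusted p = 0.0603) and 2.92 ± 0.48 (adjusted p = 0.0179). Both genes are near-identical copies, so reads may be split between them and the 2 values are not separate evidence.

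Snord14e, a small nucleolar RNA that lies inside Hspa8 (chromosome 9, 40804748 to 40804837, plus strand), was a shared rise of 0.55 ± 0.08. Its neighbour Snord14c rose by 0.54 ± 0.09 without being shared, and the host gene by 0.57. Over 15 libraries both were shared rises, of 0.61 ± 0.07 and 0.60 ± 0.08. Annotated Hspa8 exons of a transcript that retains introns overlap both, so counts of host and small RNA cannot be told apart here. Cirbp, whose RNA is known to be induced by cooling, had a fitted change of -0.47 ± 0.10 (edgeR adjusted p = 0.0522). It was a shared fall over 15 libraries, at -0.55 ± 0.08 (edgeR adjusted p = 0.00403). Rbm3, the other cold-inducible gene tested, had 0.07 ± 0.07 (edgeR adjusted p = 0.725).

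**Figure D2:**
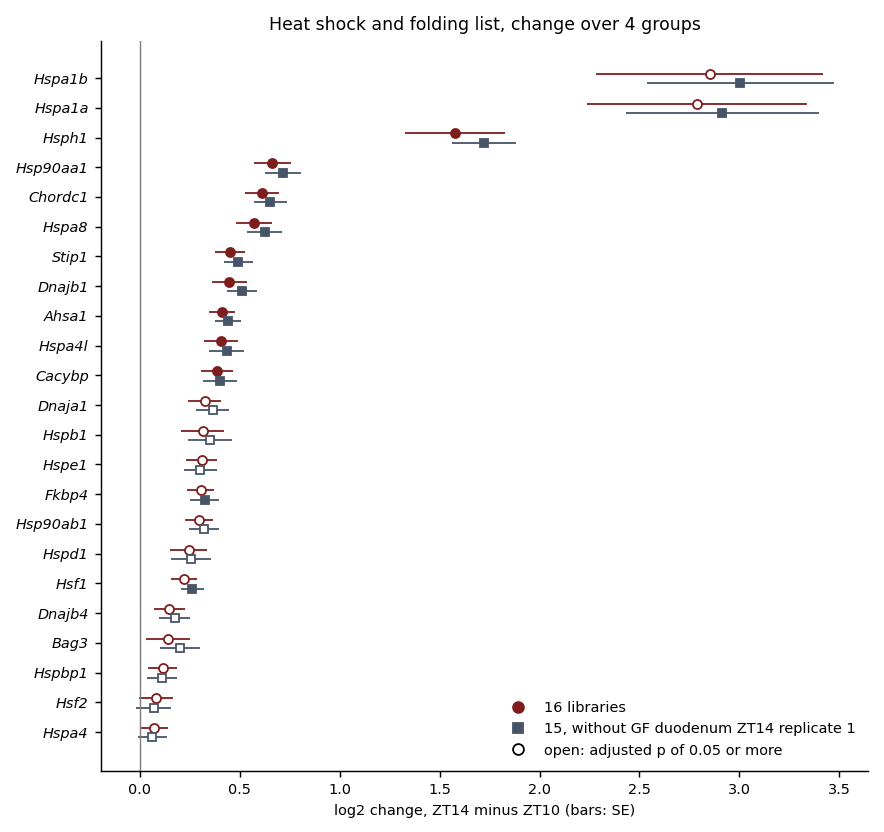
Fitted log2 change from ZT10 to ZT14 (horizontal axis, bars are SE) of the 23 genes of the heat shock and folding list, over 16 libraries (circles) and over 15 (squares). Filled symbols passed the test: 9 genes over 16 libraries and 13 over 15, and every value lies above 0.

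In the endoplasmic reticulum, Pdia4, a protein disulfide isomerase, rose by 0.28 ± 0.05 and Creld2, a secreted stress-inducible protein, by 0.36 ± 0.07. Both were shared rises, the only ones among 22 tested genes of that folding list, of which 19 had a higher fitted level. Over 15 libraries Pdia4 had 0.28 ± 0.05 and Creld2 0.38 ± 0.07, and both were again the list's shared rises. P4ha1, which hydroxylates collagen in the same compartment, stood at 7.62 to 10.9 CPM at ZT10 and at 10.3 to 17.4 CPM at ZT14. It was a shared rise of 0.57 ± 0.10 (edgeR adjusted p = 0.0174), and of 0.62 ± 0.09 over 15 libraries.

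Glucocorticoid-responsive genes formed the other list with several calls. Of 15 genes tested, 4 rose, 2 of them shared (Sgk1 and Ddit4), with a median of 0.416 and 11 of 15 higher. The other 4 had a lower fitted level, down to -0.853 (log2), and none of these passed. Over 15 libraries 5 rose and all 5 were shared, with a median of 0.43.

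Sgk1 encodes a kinase induced by glucocorticoid and mineralocorticoid hormone that promotes sodium uptake, and lies on chromosome 10 from 21882184 to 21999903 on the plus strand. It went from 82.1 and 248.3 CPM to 333.6 and 462 CPM in convR duodenum and from 504.4 and 446.3 CPM to 554.2 and 1033 CPM in GF duodenum. It went from 124 and 169.7 CPM to 343.7 and 336.4 CPM in convR ileum and from 182.1 and 294.5 CPM to 1023 and 725.8 CPM in GF ileum. The highest ZT10 levels, those of GF duodenum, lay above most ZT14 levels of the convR groups, yet within each group the times did not overlap. The rise was 1.27 ± 0.24 (log2, SE, 2.42-fold; edgeR adjusted p = 0.0482) over 16 libraries and 1.40 ± 0.22 (adjusted p = 0.0113) over 15.

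Tsc22d3 (GILZ) and Fkbp5 are direct targets of the glucocorticoid receptor, and Fkbp5 binds the receptor complex. Tsc22d3 stood at 73.0 and 73.3 CPM at ZT10 and at 149.8 and 201.2 CPM at ZT14 in convR duodenum, and at 47.7 and 63.0 CPM against 176.5 and 138.1 CPM in GF ileum. In GF duodenum it stood at 104.1 and 113.9 CPM at ZT10, at 112.5 CPM in the library labelled replicate 1 of ZT14 and at 282.2 CPM in replicate 2. Its change was 1.19 ± 0.16 over 16 libraries (edgeR adjusted p = 0.0113, not shared) and 1.32 ± 0.09 over 15 (adjusted p = 5.24e-06, shared). Fkbp5 followed the same pattern, with 32.0 and 35.4 CPM at ZT10 against 27.6 and 259.3 CPM at ZT14 in GF duodenum. It rose by 1.83 ± 0.33 (edgeR adjusted p = 0.0457) and, over 15 libraries, by 1.98 ± 0.15 (adjusted p = 7.05e-05).

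Zbtb16, a zinc finger gene also induced by the receptor, changed by 2.09 ± 0.48 (edgeR adjusted p = 0.105) over 16 libraries. It was a shared rise of 2.23 ± 0.30 (adjusted p = 0.00403) over 15. Ddit4, an inhibitor of the growth kinase mTORC1, rose by 0.49 ± 0.10 (0.55 ± 0.09 over 15 libraries), from 9.15 to 13.6 CPM at ZT10 to 10.9 to 18.3 CPM at ZT14. Angptl4, a lipoprotein lipase inhibitor on the fatty acid oxidation and PPAR list that also answers to glucocorticoid, rose by 1.91 ± 0.34 (edgeR adjusted p = 0.0429), and by 2.07 ± 0.21 over 15 libraries. It stood at 37.2 and 48.0 CPM at ZT10 and 122.9 and 151.7 CPM at ZT14 in GF ileum, the highest pair of any group.

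**Figure D3:**
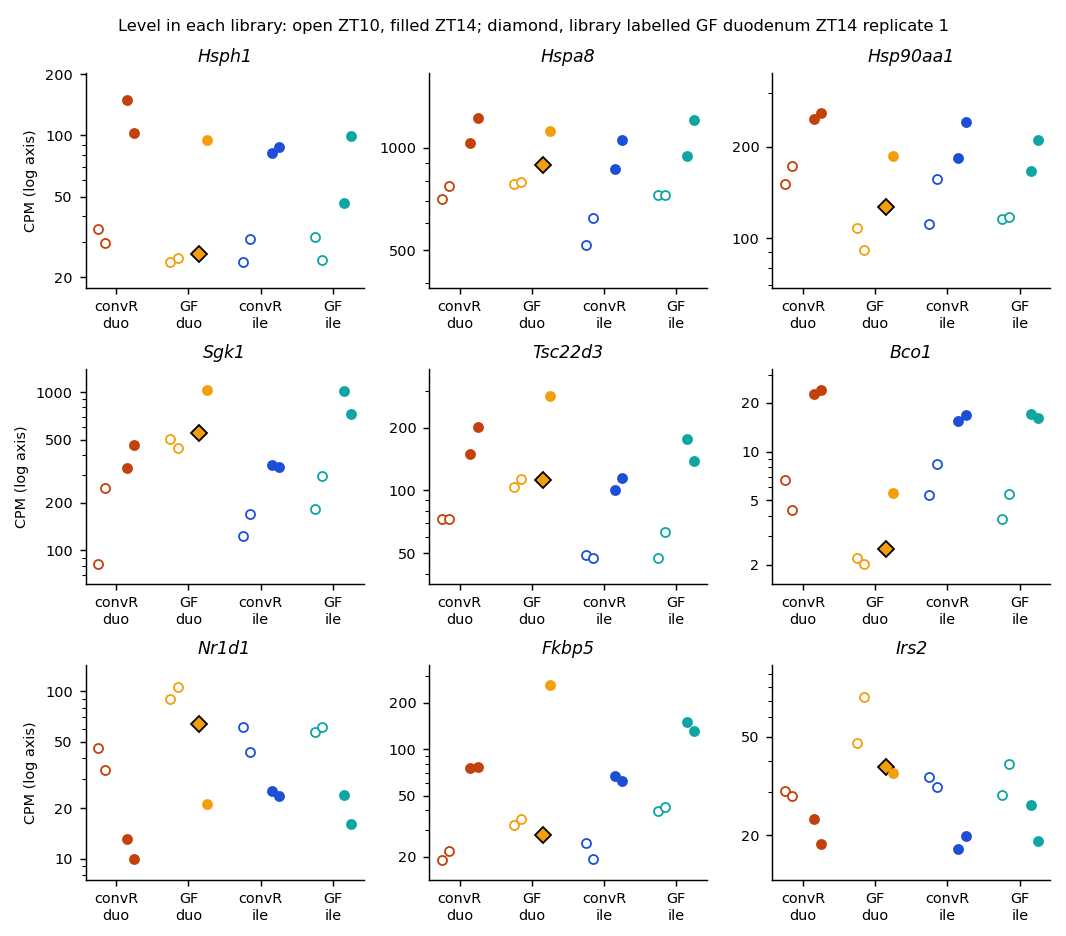
CPM (log axis) of 9 genes in each of the 16 libraries, with ZT10 as open and ZT14 as filled symbols in the 4 groups. In GF duodenum the library labelled ZT14 replicate 1 (diamond) lies near the ZT10 libraries for Hsph1, Sgk1, Tsc22d3, Bco1 and Fkbp5, while the filled circles lie apart from them.

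Among the clock genes, Nr1d1 (REV-ERB alpha; chromosome 11, 98767932 to 98775333, minus strand) was the largest shared fall over 16 libraries. It went from 46.1 and 33.9 CPM to 13 and 9.96 CPM in convR duodenum, and from 90.2 and 106.4 CPM to 63.6 and 21.1 CPM in GF duodenum. In ileum it went from 61.2 and 43.2 CPM to 25.4 and 23.5 CPM in convR, and from 57.5 and 61.1 CPM to 23.9 and 16.2 CPM in GF. No group overlapped, and the library labelled GF duodenum ZT14 replicate 1 was the highest of the ZT14 libraries. The fall was -1.42 ± 0.21 (log2, SE; edgeR adjusted p = 0.0151) and over 15 libraries -1.61 ± 0.16 (adjusted p = 0.000361).

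None of the 8 repressors passed over 16 libraries. Per2 had 0.65 ± 0.13 (edgeR adjusted p = 0.0582) and Cry1 0.61 ± 0.13 (adjusted p = 0.0605). Over 15 libraries both were shared rises, Per2 at 0.76 ± 0.09 and Cry1 at 0.69 ± 0.11 (edgeR adjusted p = 0.00124 and 0.00723). Dbp, a transcription factor of the PAR bZIP family driven by E-boxes, had -0.83 ± 0.26 (edgeR adjusted p = 0.217) over 16 libraries and fell by 1.09 ± 0.22 over 15 (adjusted p = 0.0401). It overlapped in convR ileum, at 41.4 and 48.5 CPM at ZT10 against 42.0 and 36.5 CPM at ZT14. Ciart, a repressor of BMAL1 and CLOCK, had -0.74 ± 0.32 (-1.05 ± 0.29 over 15 libraries), and also overlapped in convR ileum (4.28 and 4.77 CPM against 5.16 and 4.01 CPM). Clock, Npas2, Rora, Per1, Per3, Cry2, Tef, Hlf and Usp2 had fitted changes between -0.14 and 0.23, and Arntl 0.43 ± 0.22 (edgeR adjusted p = 0.428).

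Promoters were read from the RefSeq table of GRCm38.p6, 250 bases before to 50 after each start. Only the 250 bases before the start were searched, on both strands, for CACGTG. It was found in 29.4% of the 17 clock genes in the table (5 genes), in 4 of 31 shared rises (12.9%) and in 2 of 12 shared falls (16.7%), beside 9.27% of the genes tested that are in the table. An exact heat shock element (GAA, TTC and GAA, each parted by 2 bases) was found in 2 of 19 genes of the heat shock list. It was found in 0 of the 31 shared rises in the table, beside 0.444% of genes tested. Elements with a differing letter were not searched for, in Hsph1 or elsewhere, so their absence is not shown. Hspa8, Hsp90aa1, Hsp90ab1 and Hsf1 were not matched in the table and were not searched. A match is a description of these letters in this window. The 250 bases upstream are shown for a chaperone gene that rose and for 2 clock repressors whose fitted changes had opposite signs, with CACGTG in capitals, each 5′ to 3′ on the gene's strand.
Hsph1 (chr5:149636316-149636565, minus strand): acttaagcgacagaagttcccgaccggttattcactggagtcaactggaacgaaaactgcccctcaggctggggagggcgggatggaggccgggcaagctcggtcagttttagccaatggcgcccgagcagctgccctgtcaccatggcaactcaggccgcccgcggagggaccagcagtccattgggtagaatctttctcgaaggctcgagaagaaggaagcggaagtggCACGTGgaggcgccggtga
Cry1 (chr10:85185055-85185304, minus strand): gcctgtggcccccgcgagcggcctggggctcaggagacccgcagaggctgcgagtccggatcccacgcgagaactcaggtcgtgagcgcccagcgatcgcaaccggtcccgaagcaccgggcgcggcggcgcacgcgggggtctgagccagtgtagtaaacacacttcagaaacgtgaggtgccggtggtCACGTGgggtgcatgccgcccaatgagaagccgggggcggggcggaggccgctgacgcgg
Ciart (chr3:95882229-95882478, minus strand): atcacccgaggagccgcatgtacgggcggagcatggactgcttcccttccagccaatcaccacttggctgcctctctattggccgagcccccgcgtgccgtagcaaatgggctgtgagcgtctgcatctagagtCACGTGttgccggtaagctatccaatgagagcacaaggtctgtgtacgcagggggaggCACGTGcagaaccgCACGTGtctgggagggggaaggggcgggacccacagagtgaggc
The Hsph1 match begins 19 bases before the start and that of Cry1 60 bases before it. Ciart holds 3 matches, 116, 58 and 44 bases before the start.

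Other shared rises fell outside these lists. Bco1, which cleaves beta-carotene from food to form vitamin A, lies on chromosome 8 from 117095854 to 117133720 and appears under its older symbol Bcmo1 in the deposited table. It stood at 2.03 to 8.39 CPM in the ZT10 libraries. At ZT14 it held 22.7 and 24.0 CPM in convR duodenum, 15.5 and 16.8 CPM in convR ileum, 17.1 and 16.2 CPM in GF ileum, and 2.49 and 5.53 CPM in GF duodenum. Its rise was 1.55 ± 0.20 (log2, SE, 2.93-fold; edgeR adjusted p = 0.0111), and 1.67 ± 0.15 (adjusted p = 7.32e-05) over 15 libraries. Dhrs9, a dehydrogenase that acts on retinol, rose by 1.07 ± 0.20 (1.17 ± 0.18 over 15 libraries) at a low level (0.877 to 2.23 CPM at ZT10).

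Tppp, which stabilises microtubules, rose by 1.24 ± 0.23 (edgeR adjusted p = 0.044), and by 1.36 ± 0.21 over 15 libraries. Its levels differed by group: 13.3 and 13.6 CPM at ZT10 against 37.2 and 43.3 CPM at ZT14 in convR duodenum, and 83.0 and 160.2 CPM against 256 and 238.2 CPM in GF ileum. Banp, a nuclear matrix and promoter-binding protein, rose by 0.92 ± 0.14, and Tcim, a positive regulator of Wnt signalling, by 0.92 ± 0.15. Dynll1, a dynein light chain, rose by 0.56 ± 0.09, and Tsc22d1, of the same family as Tsc22d3, by 0.54 ± 0.10. Amd1, the decarboxylase that supplies polyamine synthesis, was the only call among 13 polyamine genes, at 0.41 ± 0.07. Btg2, an antiproliferative early response gene, was the only call among 24 immediate early genes, at 0.38 ± 0.08. Creb1, the cAMP-responsive transcription factor, rose by 0.23 ± 0.04. Over 15 libraries Banp had 1.01 ± 0.11, Tcim 0.996 ± 0.134, Dynll1 0.58 ± 0.09 and Tsc22d1 0.60 ± 0.09. Amd1 had 0.44 ± 0.06, Btg2 0.41 ± 0.08 and Creb1 0.24 ± 0.05, and both lists again had 1 call each.

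Shared falls were fewer and, Nr1d1 aside, smaller. Irs2, the adaptor that carries the insulin signal from its receptor, stood at 28.9 to 72.3 CPM at ZT10 and at 17.6 to 37.9 CPM at ZT14. Within groups it went from 47.5 and 72.3 CPM to 37.9 and 35.8 CPM in GF duodenum and from 34.4 and 31.4 CPM to 17.6 and 19.9 CPM in convR ileum. Here the library labelled GF duodenum ZT14 replicate 1 lay beside replicate 2. The fall was -0.65 ± 0.10 (log2, SE; edgeR adjusted p = 0.0126) over 16 libraries and -0.65 ± 0.10 (adjusted p = 0.00677) over 15. It was the only call among 18 tested genes of the insulin and FOXO list.

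Zc3h6, a zinc finger gene, fell by 0.84 ± 0.13, Rsad1 by 0.60 ± 0.08 and Slitrk6, a neuronal transmembrane protein, by 0.44 ± 0.09. Efnb2, an ephrin ligand, fell by 0.43 ± 0.09. Ptch1, the Hedgehog receptor, is found in the mesenchyme of the gut wall and is itself a target of that pathway. It stood at 24.4 to 40.3 CPM at ZT10 and at 19.3 to 30.9 CPM at ZT14, a fall of 0.38 ± 0.07 (edgeR adjusted p = 0.0302). Spata13, Lrrc31 and Ttc39b fell by 0.38 ± 0.08, 0.35 ± 0.07 and 0.32 ± 0.06. Over 15 libraries these genes passed again, with -0.96 ± 0.10 for Zc3h6, -0.58 ± 0.09 for Rsad1, -0.45 ± 0.10 for Slitrk6, -0.47 ± 0.09 for Efnb2 and -0.40 ± 0.07 for Ptch1. Spata13 had -0.42 ± 0.08, Lrrc31 -0.36 ± 0.08 and Ttc39b -0.34 ± 0.06.

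Of 34 gene lists, 25 had no call over 16 libraries, with medians between -0.2 and 0.11. They include cholesterol synthesis (25 genes, 12 higher), fat absorption (23 genes, 14 higher), sugar digestion and uptake (15 genes, 7 higher), mitosis (24 genes, 10 higher) and MHC class II (9 genes, 4 higher). In 34 of 37 ribosome biogenesis genes the fitted level was higher, with a median of 0.108. In 20 of 25 interferon response genes it was lower, with a median of -0.124. Over all 19618 genes tested, 9653 were higher and 9965 lower, and whether these lists differ from that share was not tested. Over 15 libraries the lists gained further calls among genes not named above. Wee1, a brake on mitotic entry, rose by 0.47 ± 0.09. Herpud1, which acts in the removal of misfolded protein from the endoplasmic reticulum, rose by 0.46 ± 0.10. Abcc2, an export pump for conjugates on the bile acid list, had a fitted change of -0.76 ± 0.16 and was a shared fall. Heat shock factor Hsf1 (0.26 ± 0.06) and the HSP90 partner Fkbp4 (0.32 ± 0.07) joined the chaperone rises.

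Within single groups of 2 against 2 libraries no gene passed edgeR. Without any change, about 5% of genes would have an unadjusted p under 0.05. In convR duodenum 1299 genes (6.62%) had such a p in edgeR. GF duodenum had 502 (2.56%), convR ileum 706 (3.60%) and GF ileum 772 (3.94%), all below that share. DESeq2 called 87, 1, 9 and 15 genes. Over 15 libraries, with the lone ZT14 library of GF duodenum taken to vary like the others, edgeR called 15 genes in that group. No gene passed for a difference of the change between ileum and duodenum (312 at an unadjusted p under 0.05, 1.59%; DESeq2 0) or between GF and convR (518, 2.64%; DESeq2 2), and none over 15 libraries in edgeR. For Hsph1 the change in GF minus that in convR was -0.45 ± 0.53, and for Sgk1 0.07 ± 0.47 (log2, SE), so differences of that order could not be resolved.

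Genes with the smallest p for these differences are given as values. Slc15a2, a peptide transporter, went from 6.51 and 7.76 CPM to 0.182 and 0.181 CPM in convR ileum and from 10.8 and 12.7 CPM to 6.21 and 4.43 CPM in GF ileum. The change in GF minus that in convR was 2.89 ± 0.55 (edgeR adjusted p = 1). Nfkbia, the inhibitor of NF-kappaB, went from 153.7 and 81.0 CPM to 48.4 and 55.2 CPM in convR duodenum and from 92.3 and 79.2 CPM to 53.0 and 55.3 CPM in convR ileum. In the 8 GF libraries it stayed between 43.7 and 54.1 CPM. Between tissues, Npr3, a natriuretic peptide receptor, had fitted changes of 0.42 and 0.26 in duodenum and -0.54 and -0.78 in ileum (convR and GF). Pcp4l1 had 1.18 in convR duodenum and between -0.13 and 0.12 in the other 3 groups.

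Over the 6 times of the day, with mean CPM averaged over the 4 groups, ZT14 was the highest time for 14 of the 38 shared rises and ZT18 for 23. ZT10 was the lowest time for 21 of the 38. Of the 15 shared falls, 12 were highest at ZT10, 7 were lowest at ZT18 and 6 at ZT14. These means hold the same ZT10 and ZT14 libraries by which the genes were chosen. A shared rise could therefore not be expected highest at ZT10 or lowest at ZT14, nor a shared fall the reverse, and the counts are partly set by that choice. Sgk1 was highest at ZT14, with a mean of 609.1 CPM there, beside 258.2 CPM at ZT10 and 365.6 CPM at ZT18. Tsc22d3 had 161.4 CPM at ZT14 and between 69.5 and 125.1 CPM at the other times, and both were highest at ZT14 in all 4 groups. Amd1 and Ddit4 were also highest at ZT14 in all 4. Nr1d1 went from 63.0 CPM at ZT10 through 24.9 CPM at ZT14 to 3.04 CPM at ZT18. By the clock genes, 37 of all 47 libraries lay nearest to their own time. In GF duodenum both ZT6 libraries lay nearest to ZT14, and neither ZT14 library lay nearest to its own time. Both ZT2 libraries of convR ileum and that of GF ileum lay nearest to ZT22. The means at these times are therefore uncertain.

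**Figure D4:**
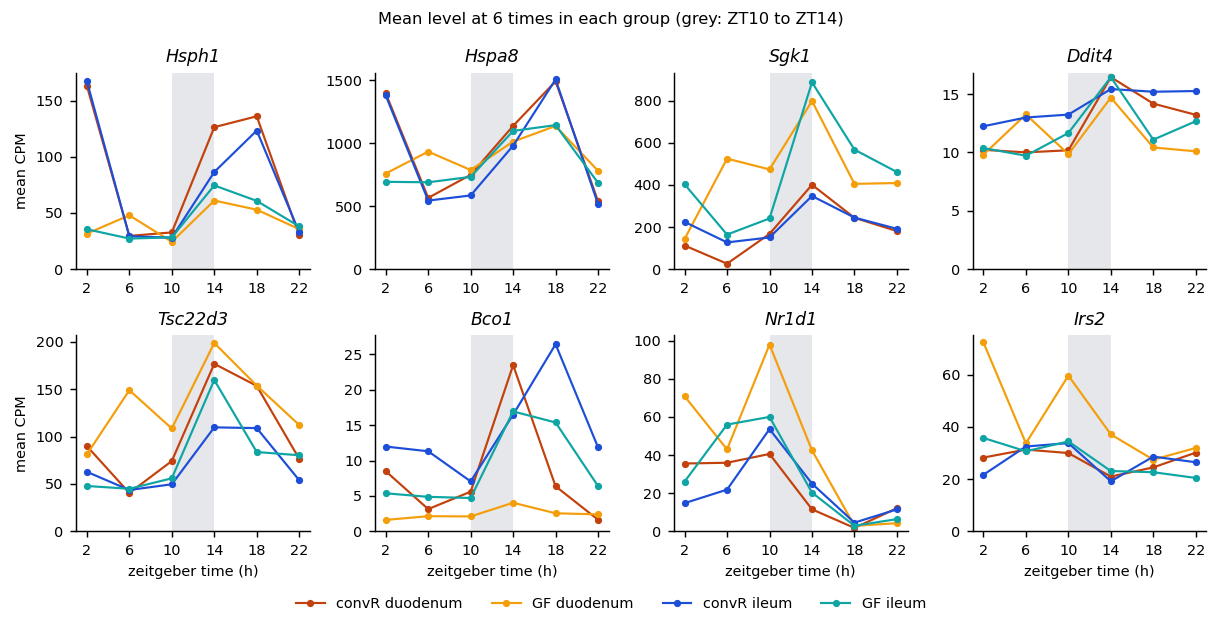
Mean CPM of 8 genes at 6 zeitgeber times in each of the 4 groups, 2 libraries a point (1 for GF ileum at ZT2), with the span from ZT10 to ZT14 in grey. Sgk1, Tsc22d3 and Ddit4 are highest at ZT14 in all 4 groups, and Hsph1 and Hspa8 have a further high value at ZT2 in the convR groups.

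Hsph1 and Hspa8 had another high time in the convR groups. At ZT2 mean Hsph1 was 163.3 CPM in convR duodenum, 167.3 CPM in convR ileum, 31.6 CPM in GF duodenum and 35.5 CPM in GF ileum, and mean Hspa8 was 1398, 1381, 760 and 694.1 CPM in the same order. The difference between convR and GF at ZT2 was not tested. Mean Hsph1 over the 4 groups was 28.3 CPM at ZT10, 87.1 CPM at ZT14, 93.3 CPM at ZT18, 34.1 CPM at ZT22 and 99.5 CPM at ZT2. The ZT2 and ZT22 libraries, 15 in all, share none with the comparison above. Between them 33 of the 38 shared rises were higher at ZT2, with a median log2 difference of 0.20, beside 47.3% of all genes tested in both. No gene passed that test in edgeR (0 of 20336, lowest adjusted p 0.233, with 2357 at an unadjusted p under 0.05). Hsph1 had 1.30 ± 0.48 (edgeR adjusted p = 0.368) and Hspa8 0.76 ± 0.25 (adjusted p = 0.329), so the high level at ZT2 is a description of these levels. Of the 15 shared falls 6 were higher at ZT2, among them Nr1d1 at 1.93 ± 0.52 (edgeR adjusted p = 0.287).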

How the data were processed

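RNA was measured in 47 libraries, of which the 16 of ZT10 and ZT14 were compared. The deposited table gives, per gene and library, the whole number of reads that fell on its exons, as raw counts. Reads were aligned with STAR 2.4.0i to mm10, per the submitters' processing notes. How reads were counted, with which annotation and whether by strand, is not given in the sources used here, so counts of overlapping genes, antisense genes and near-identical copies are uncertain. Of 38087 genes listed, 36308 were matched by identifier to GENCODE M21 for current symbols and for positions; the symbol differed from the deposited one in 7968 of them.

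Counts were scaled by TMM and tested with edgeR 4.0.16 (R 4.3.3, robust quasi-likelihood fit) after its filter at a minimum of 10 counts. The model held the tissue-by-status group as a factor plus time. Separate group changes and their dependence on tissue or status came from a fit of the 8 group-by-time means. P-values are two-sided and adjusted by Benjamini-Hochberg over all genes tested, with a threshold of 0.05. SEs were derived from the F statistic. Overlap was judged on log2 CPM with a prior count of 0.5. DESeq2 1.42.0 was an alternative. The procedure was tested on simulated data.

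The genes named are the 15 largest shared rises and falls with a mean of at least 2 CPM, passing over predicted genes and non-coding RNAs, all genes of 3 clock lists, up to 4 of each other list by p, and those with the smallest p for dependence on tissue or status. Snord14e and Snord14c, and members of lists beyond the first 4, were named after their values were seen, and some genes that the rule names are not reported here. The comparison, the gene lists and the naming rule were chosen with earlier results of these data known. Libraries of equal number at ZT10 and ZT14 were checked for pairing by the correlation of their deviations from the group means. No 2 replicates of the same group and time agreed within sampling noise. Libraries of different times were not compared in this way. Alternatives included other scaling, filters and models and leaving out each library, and those restricted to 1 tissue or 1 status were chosen after seeing the data.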

Additional observations from a re-analysis of the deposited data

How the results depend on the processing

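Over 29 alternatives every shared gene that was still tested kept its sign, which the rule of no overlap in every group all but fixes in advance. How many passed varied. Genes passing numbered 13 to 139 rises and 3 to 67 falls, and shared changes 11 to 120 rises and 3 to 51 falls, when single libraries were left out. Most passed without GF duodenum ZT14 replicate 1 (206 genes). Fewer than 51 passed without GF ileum ZT14 replicate 2 (16), convR duodenum ZT10 replicates 1 and 2 (18 and 49), convR ileum ZT10 replicates 1 and 2 (20 and 42), convR ileum ZT14 replicates 1 and 2 (31 and 24), GF ileum ZT10 replicates 1 and 2 (25 and 26), GF duodenum ZT10 replicates 1 and 2 (40 and 29) and GF duodenum ZT14 replicate 2 (31). Left out in the same way, single groups gave 0 to 364 (convR duodenum), 0 to 15 (GF duodenum), 0 to 2 (convR ileum) and 0 to 9 genes (GF ileum). Tissue dependence gave 0 to 11 and status dependence 0 to 36, the highest without convR duodenum ZT14 replicate 2. Library size alone gave 8 falls, 8 of them shared, and 3 genes in convR duodenum. DESeq2 gave 201 rises and 138 falls (75 and 58 shared), 2 genes for status, and 87, 1, 9 and 15 in convR duodenum, GF duodenum, convR ileum and GF ileum. With no filter on low counts there were 29 falls, 150 and 375 genes for tissue and status, and 765, 162, 267 and 278 in those 4 groups. The cell-mean fit gave 23 rises (16 shared) and 11 falls. All 47 libraries gave 1 gene in convR duodenum and 1 in convR ileum. Summing duodenum and ileum libraries of equal number gave 3 rises, all shared, and 0 falls.

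Without convR duodenum 0 rises and 0 falls passed, and 2 genes in convR ileum. Ileum alone gave 7 rises, all shared, and 0 falls, with 3 genes in convR and 5 in GF; duodenum alone and GF alone gave 0, and convR alone 4 rises, all shared, 0 falls and 1 gene in convR duodenum. Smaller sets hold fewer samples.

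The replicate block gave 92 rises, 35 falls and 3 genes in convR duodenum. Libraries of equal number at ZT10 and ZT14 correlated at 0.0279, 0.0206, 0.473 and 0.0853 (in the order of groups above). Equal numbers thus went together in convR ileum and hardly in the other groups, and the main fit did not pair them. Duodenum and ileum libraries of equal number correlated at 0.193 (convR ZT10), 0.316 (convR ZT14), 0.198 (GF ZT10) and 0.0758 (GF ZT14).

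Changes near 0 reversed. Hlf had -0.034 without convR duodenum, -0.028 without convR duodenum ZT14 replicate 1 and -0.079 in GF alone, and up to 0.136 with other single libraries left out. In ileum alone Per1 had 0.073, Per3 0.065, Tef 0.063, Usp2 0.087 and Pcp4l1 -0.037. In duodenum alone Npas2 had 0.028, Rora 0.084 and Npr3 0.34. In convR alone Rora had 0.032 and Per1 0.078. The cause was not tested.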

Other observations

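Further genes outside the lists, chosen here after their values were seen, passed over 16 libraries but overlapped in GF duodenum. Fmo2, a flavin-containing monooxygenase, stood at 20.2 to 36.1 CPM at ZT10 and, GF duodenum replicate 1 at 21.8 CPM aside, at 41.7 to 75.2 CPM at ZT14. It rose by 0.88 ± 0.13 (log2, SE; edgeR adjusted p = 0.0126), and by 0.98 ± 0.08 over 15 libraries (adjusted p = 5.97e-05). Slc47a1, an exporter of organic cations, rose by 0.64 ± 0.12 and Cd163, a scavenger receptor of macrophages, by 0.80 ± 0.16. Hif3a, a hypoxia-inducible factor subunit, rose by 0.94 ± 0.18 at a low level (0.27 to 2.24 CPM at ZT10). Over 15 libraries all 4 were shared rises, Slc47a1 of 0.72 ± 0.10, Cd163 of 0.88 ± 0.15 and Hif3a of 1.04 ± 0.15.

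Over 15 libraries alone, Noct, a daily cycling phosphatase of nicotinamide dinucleotides, was a shared rise of 0.73 ± 0.12 (edgeR adjusted p = 0.00765), and Slc5a3, a myo-inositol transporter that answers to salt, one of 0.62 ± 0.09 (adjusted p = 0.00403). Socs3, a feedback inhibitor of cytokine signalling, was a shared fall of -1.16 ± 0.20 (adjusted p = 0.0179). Over 16 libraries these had adjusted p of 0.105, 0.0824 and 0.224.

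Defb39, a beta-defensin gene, passed on a difference in convR ileum. It stood at 0.183 and 0.187 CPM at ZT10 and at 1.70 and 1.29 CPM at ZT14 there, and at most at 0.0805 CPM in the other 12 libraries.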
